A study of Homo sapiens with 9 samples.

Results

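The 36 genes described here encode aminoacyl-tRNA synthetases, the enzymes that join each amino acid to its transfer RNA. They were chosen by name from the deposited gene table, 20 that act in the cytosol and 16 that act in mitochondria (symbols ending in 2), of 58735 genes in all. All 36 were found under the older symbols (AARS, for the gene now called AARS1). RNA was sequenced from GBM43, a glioblastoma cell line, which had been grown in devices of hyaluronic acid gel from which cells can invade the surrounding gel. One group of 3 libraries came from devices that received MK801 (50 µM), which blocks NMDA-type glutamate receptors, and in these the invading cells and the core were combined because few cells had invaded. Control devices were cut into an invasive fraction (3 libraries) and a core fraction (3 libraries), and the submitters name both culture medium and the solvent DMSO as what these devices received. An MK801 library therefore holds a pool of both fractions, so a difference between the MK801 group and either control fraction mixes the drug with the make-up of the pool. Nothing in the labels ties the 3 libraries of a group to 3 separate cultures. Each p-value therefore measures library-to-library spread that may be technical.

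Each synthetase recognises 1 amino acid and the transfer RNAs that carry it, and supplies both to the ribosome in charged form. Mitochondria translate their own few messages with a separate set of synthetases, which are encoded in the nucleus and imported. Some genes serve both places: GARS (glycine) and KARS (lysine) make a cytosolic and a mitochondrial form from 1 gene, and human mitochondria make glutaminyl-tRNA by amidation and have no partner of QARS. EPRS is a fused enzyme for glutamate and proline, and the cytosolic phenylalanine enzyme has a FARSA and a FARSB subunit where mitochondria use the single chain FARS2. Several cytosolic synthetases are held in a large multi-synthetase complex, and many are known targets of ATF4, the transcription factor of the integrated stress response, which is switched on by amino acid shortage.

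The libraries held 15.6 to 54.4 M fragments over genes. They differed in ways that the synthetase values follow. At an equal depth of 15.6 M fragments, 15161, 19031 and 21517 genes were detected in the MK801 libraries, 18266, 15975 and 19140 in invasive libraries, and 20322, 20573 and 21414 in core libraries. The mean GC content of the genes, weighted by their fragments, was 54.2, 53.1 and 50.5% in MK801 libraries, 53.2, 54.4 and 52.7% in invasive libraries, and 51.1, 50.9 and 49.8% in core libraries. By both measures MK801 replicate 3 lay beside the core libraries. Of 8 glioma and neural stem markers, 4 reached 1 FPKM (fragments per kilobase of gene length, scaled to library size): VIM at 897 to 2101, CD44 at 49.2 to 106, EGFR at 3.19 to 6.43 and SOX2 at 1.39 to 3.26 FPKM, while OLIG2 was at 0 in all 9 libraries and NES, GFAP and PTPRZ1 stayed under 1. Some markers of other cell types also moved with the groups. Of 5 fibroblast and pericyte markers 4 reached 1 FPKM, with a summed level of 41.9 to 129 FPKM in MK801, 222 to 410 FPKM in invasive and 37.7 to 74.8 FPKM in core libraries, mostly COL1A1 and PDGFRB. The sum was 1.75 to 4.83, 4.14 to 5.84 and 1.75 to 2.78 FPKM for 5 microglia and macrophage markers, of which CSF1R alone reached 1 FPKM. CSF1R averaged 4.81 FPKM in invasive and 1.98 FPKM in core libraries, while PTPRC, CD68 and AIF1 had lower invasive means. For 4 endothelial markers the sum was 1.34 to 1.60, 1.78 to 5.32 and 1.34 to 1.48 FPKM, in the same order of groups. CDH5 averaged 1.78 FPKM in invasive and 0.0295 FPKM in core libraries, against 0.975 and 0.933 FPKM for PECAM1, 0.391 and 0.430 FPKM for KDR, and 0.0700 and 0.00515 FPKM for VWF. Of 4 neuron markers 0 reached 1 FPKM. The part of these markers in the synthetase differences was not tested. In bulk RNA, fewer cells of a kind and less RNA in each cell cannot be told apart.

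Cytosolic synthetase transcripts were the more abundant set in every group. Of the 20 cytosolic genes, 19 averaged over 10 FPKM in MK801, 20 in invasive and 16 in core libraries, against 4, 4 and 3 of the 16 mitochondrial genes. The median over the group means was 17.6 FPKM in MK801, 18.8 in invasive and 22.2 in core libraries for the cytosolic set, and 6.71, 7.38 and 5.50 FPKM for the mitochondrial set. Summed over its 20 genes, the cytosolic set reached 1009, 649 and 540 FPKM in MK801 libraries, 678, 982 and 651 FPKM in invasive libraries, and 541, 573 and 547 FPKM in core libraries. The invasive sums lay above all 3 core sums, while MK801 ranged from the core level to the highest sum of all. The mitochondrial sum was 143, 129 and 130 FPKM in MK801 libraries, 130, 133 and 128 FPKM in invasive libraries, and 134, 138 and 136 FPKM in core libraries, a far narrower range. The library total implied by the deposited FPKM was 0.769, 0.937 and 1.19 times the fragments over genes in MK801 libraries, 1.00, 0.788 and 1.06 times in invasive libraries, and 1.18, 1.10 and 1.23 times in core libraries. A total below the fragments over genes may not be a plain count, and how it was set is not given in the sources used here. The rescaled sums below leave this total out. Rescaled to the fragments over genes, a step added after seeing the data, the cytosolic sum was 777, 608 and 646 in MK801, 680, 774 and 693 in invasive, and 636, 632 and 673 in core libraries. The rescaled mitochondrial sum was 110, 121 and 155 in MK801, 130, 105 and 136 in invasive, and 157, 153 and 168 in core libraries. Rescaling thus narrowed the cytosolic gap between the fractions and widened the mitochondrial one, in which all 3 invasive sums lay below the core ones on both scales. The sum is carried by its highest genes, among them FARSA, which had 298, 151 and 70.1 FPKM in MK801, 153, 269 and 136 FPKM in invasive and 81.1, 91.3 and 58.3 FPKM in core libraries.

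**Figure D1:**
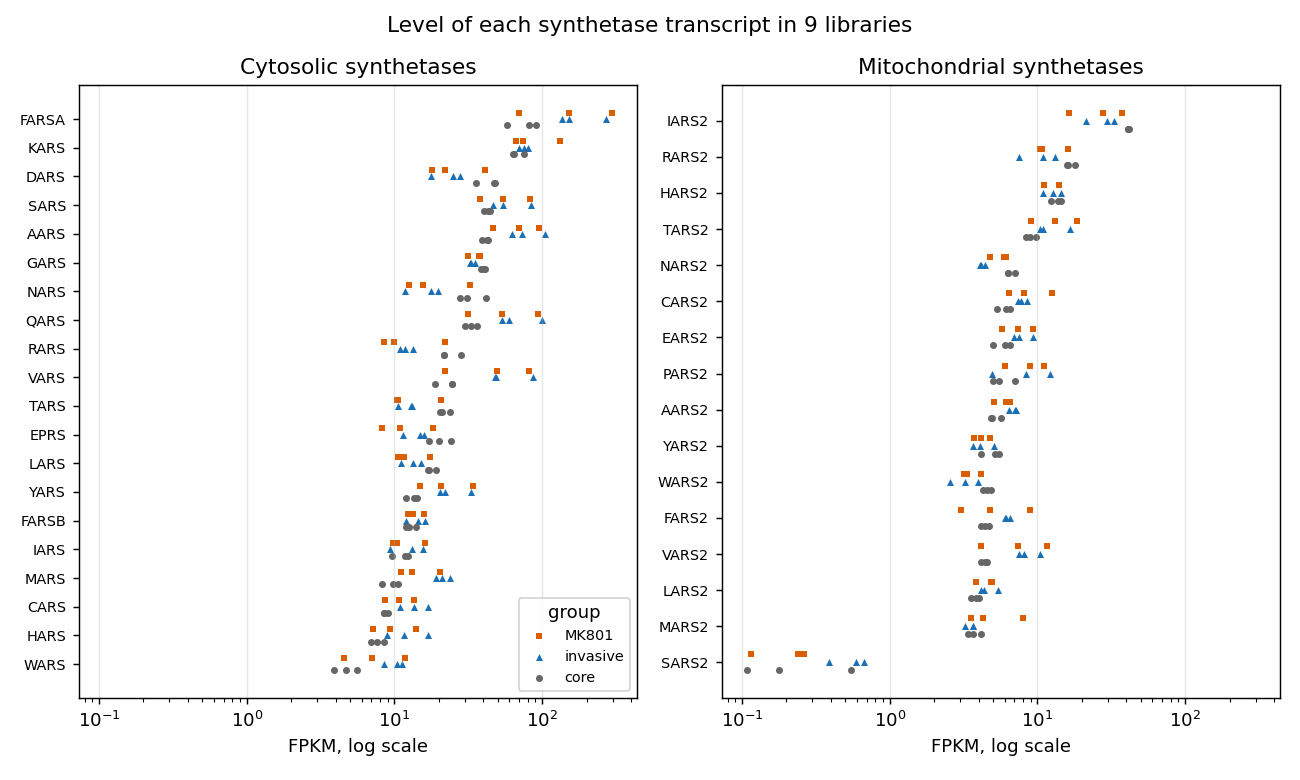
FPKM of each synthetase (log axis) in the 3 MK801, 3 invasive and 3 core libraries, with genes in order of their core mean. In core libraries FARSA and KARS have the highest cytosolic means and IARS2 the highest mitochondrial one, at 41.3 to 41.5 FPKM, while SARS2 stays under 1 FPKM throughout.

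At the low end of the cytosolic set stood WARS, the tryptophan enzyme, at 4.73 ± 0.853 FPKM in core libraries (SD, n = 3). The mitochondrial genes other than IARS2, RARS2, HARS2 and TARS2 averaged under 10 FPKM in all 3 groups. SARS2, the mitochondrial serine enzyme, had 0.262, 0.241 and 0.114 FPKM in MK801, 0.388, 0.671 and 0.589 FPKM in invasive, and 0.545, 0.108 and 0.179 FPKM in core libraries. These values rest on 6 to 49 fragments, and 57.0% of SARS2 exon bases are shared with exons of AC011455.2 and MRPS12. SARS2 failed the filter of 1 FPKM in at least 3 libraries, so 35 members were tested, each with at least 124 fragments in every library. Exon bases shared with other genes also make the level of VARS2 uncertain (22.0%, with GTF2H4), as well as HARS2 (15.8%, with HARS and ZMAT2), MARS (13.3%, with DDIT3 and other genes) and WARS (10.6%). Whether strand was used in counting is not given in the sources used here.

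The promoters of several members carry the short element to which ATF4 binds together with C/EBP proteins, and the stretches that hold it are shown because most of them belong to cytosolic members. RefSeq windows (GRCh38.p14) of 250 bases before to 50 bases after an annotated start were matched for 30 members, 16 cytosolic and 14 mitochondrial. The motif TGATGNAA, read on both strands (reverse complement TTNCATCA), was in a window of 7 of the 16 cytosolic genes and 1 of the 14 mitochondrial genes. By window this was 33.3% of 21 cytosolic and 5.56% of 18 mitochondrial windows, beside 3.62% of all 35116 windows. Another common promoter motif, the CCAAT box (CCAAT or ATTGG), was in 7 of 16 cytosolic and 9 of 14 mitochondrial genes, beside 39.7% of all genes, and in these members the 2 motifs did not overlap. The 8 stretches follow, each 28 bases on the strand of its gene, with the motif in capitals.
TARS, chr5:33440957-33440984, plus strand: cgcctttcgaTTGCATCAgctggtccag
GARS, chr7:30594835-30594862, plus strand: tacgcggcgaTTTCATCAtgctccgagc
IARS, chr9:92293693-92293720, minus strand: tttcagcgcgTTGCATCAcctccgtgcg
CARS, chr11:3057408-3057435, minus strand: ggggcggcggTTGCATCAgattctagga
MARS, chr12:57488054-57488081, plus strand: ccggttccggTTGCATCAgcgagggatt
AARS, chr16:70289676-70289703, minus strand: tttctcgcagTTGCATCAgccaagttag
NARS, chr18:57621805-57621832, minus strand: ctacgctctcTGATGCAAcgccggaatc
YARS2, chr12:32756077-32756104, minus strand: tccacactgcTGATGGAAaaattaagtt
Of the cytosolic stretches, 6 read TTGCATCA or its reverse complement TGATGCAA, and the first motif base lay between positions -33 and 15 in 6 of the 7 genes, counted from the annotated start. In AARS it lay at position -187, and in YARS2 at -197. A match describes these letters and is no measure of binding.

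Between invasive and core libraries, cytosolic synthetases parted into a group with higher and a group with lower levels in the invasive fraction, and none passed the test across genes. FPKM was analysed as log2(FPKM + 1) with limma over 11845 genes and all 9 libraries. At an adjusted p under 0.05 (Benjamini-Hochberg), 0 of 35 members and 0% of all genes were called. The smallest adjusted p was 0.0883 among members and 0.0590 among all genes. At an unadjusted p under 0.05 stood 12 of 20 cytosolic and 3 of 15 mitochondrial members, against 37.7% of all genes. The median log2 difference was 0.32 over cytosolic members (13 higher, 7 lower), 0.23 over mitochondrial members (8 higher, 7 lower) and -0.02 over all genes. These medians depended on scaling. With quantile normalization they were 0.02 over cytosolic and 0.32 over mitochondrial members. With voom on recovered fragments they were 0.01 and -0.06, where the median over all genes was -0.36. The voom fit leaves out the library totals implied by the deposited FPKM. With a filter of 5 FPKM in place of 1 FPKM, the median over all genes was 0.24, nearer to the members' medians of 0.32 and 0.23. Invasive libraries lay above core libraries for 10 cytosolic and 7 mitochondrial members (background 32.0%), and below them for 7 cytosolic and 4 mitochondrial members (background 32.8%).

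The smallest p belonged to MARS, the methionine enzyme that also charges the initiator transfer RNA (ENSG00000166986, chr12:57475445-57517569, plus strand). It had 20.4, 13.2 and 11.1 FPKM in MK801, 21.1, 23.7 and 19.1 FPKM in invasive, and 10.7, 8.27 and 9.82 FPKM in core libraries. Every invasive library lay above every core library, and MK801 replicate 1 lay at the invasive level. The invasive mean was 2.22 times the core mean (log2 difference 1.08, SE 0.25, limma adjusted p = 0.0883). WARS (ENSG00000140105, chr14:100333788-100376805, minus strand) had 10.4, 11.2 and 8.55 FPKM in invasive libraries, against 5.59, 3.88 and 4.71 FPKM in core libraries. Its log2 difference was 0.95 (SE 0.29, limma adjusted p = 0.106), with no overlap between the fractions. VARS, the valine enzyme (ENSG00000204394, chr6:31777518-31795953, minus strand), had 48.8, 86.9 and 48.2 FPKM in invasive libraries, against 24.4, 24.6 and 18.8 FPKM in core libraries. Its log2 difference of 1.36 (SE 0.42, limma adjusted p = 0.106) was the highest of all members, and invasive replicate 2 stood above the other two. AARS, the alanine enzyme (ENSG00000090861, chr16:70252295-70289543, minus strand), had 72.9, 105 and 62.2 FPKM in invasive libraries, against 43.2, 42.6 and 39.5 FPKM in core libraries. Its log2 difference was 0.89 (SE 0.30, limma adjusted p = 0.106).

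TARS, the threonine enzyme (ENSG00000113407, chr5:33440696-33469539, plus strand), stood on the other side. It had 10.6, 12.9 and 13.1 FPKM in invasive libraries, against 20.3, 21.1 and 23.9 FPKM in core libraries, with a log2 difference of -0.79 (SE 0.27, limma adjusted p = 0.106). The fractions did not overlap. TARS carries the promoter element shown above, as do MARS and AARS. Of the 7 cytosolic genes with the element, AARS, CARS and MARS were higher in invasive libraries with no overlap, and NARS, TARS and GARS were lower with no overlap. IARS overlapped between the fractions. NARS, the asparagine enzyme, had the lowest log2 difference of all members, -0.99, at 16.4 ± 4.18 FPKM in invasive and 33.4 ± 7.32 FPKM in core libraries (SD, n = 3 each). FARSA (186 ± 72.5 FPKM in invasive and 76.9 ± 16.9 FPKM in core libraries), QARS (71.1 ± 24.6 and 33.2 ± 3.02 FPKM), YARS (25.2 ± 6.75 and 13.3 ± 1.21 FPKM), CARS (13.8 ± 3.05 and 8.70 ± 0.334 FPKM), HARS (12.5 ± 4.01 and 7.69 ± 0.815 FPKM) and SARS (62.0 ± 20.1 and 42.8 ± 2.12 FPKM) had higher invasive means. They charge phenylalanine, glutamine, tyrosine, cysteine, histidine and serine. DARS (23.4 ± 5.13 FPKM in invasive and 43.6 ± 6.98 FPKM in core libraries), RARS (12.1 ± 1.24 and 23.8 ± 3.76 FPKM), EPRS (14.0 ± 2.31 and 20.5 ± 3.61 FPKM) and LARS (13.1 ± 1.99 and 17.8 ± 1.17 FPKM) had lower invasive means. These are the enzymes of aspartate, arginine, glutamate with proline, and leucine, and all 4 belong to the multi-synthetase complex. The smallest log2 differences were 0.13 for FARSB (14.2 ± 2.15 and 12.8 ± 1.04 FPKM), 0.14 for KARS (74.9 ± 5.08 and 67.8 ± 6.49 FPKM), 0.15 for IARS (12.8 ± 3.18 and 11.2 ± 1.43 FPKM) and -0.24 for GARS (33.6 ± 1.49 and 40.0 ± 1.15 FPKM). The sign turned for FARSB and KARS with quantile normalization, and for these and IARS with voom.

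Among mitochondrial members the differences were smaller, from -0.64 (RARS2) to 0.84 (VARS2) on the log2 scale. The 1 added to FPKM shrinks differences more at low levels, where most mitochondrial members lay. Without it, the invasive mean was 0.632 (RARS2) to 1.99 (VARS2) times the core mean among tested mitochondrial members. Among cytosolic members it was 0.492 (NARS) to 2.72 (VARS) times the core mean. NARS2, the mitochondrial asparagine enzyme, had 4.07, 4.14 and 4.43 FPKM in invasive libraries, against 6.31, 6.37 and 7.01 FPKM in core libraries (log2 difference -0.54, SE 0.18, limma adjusted p = 0.106). VARS2 had 8.08, 10.4 and 7.56 FPKM in invasive libraries, against 4.53, 4.17 and 4.39 FPKM in core libraries (log2 difference 0.84, SE 0.30, limma adjusted p = 0.108). RARS2 had 10.8, 7.55 and 13.2 FPKM in invasive libraries, against 15.9, 18.0 and 16.1 FPKM in core libraries (log2 difference -0.64, SE 0.25, limma adjusted p = 0.114). None of these 3 overlapped between the fractions. IARS2, the most abundant mitochondrial member, averaged 27.9 ± 6.06 FPKM in invasive and 41.4 ± 0.134 FPKM in core libraries (SD, n = 3 each), and WARS2 averaged 3.26 ± 0.699 and 4.56 ± 0.269 FPKM. AARS2, CARS2, EARS2, FARS2, LARS2 and TARS2 lay above the core range in every invasive library, with log2 differences from 0.23 (LARS2, -0.06 with voom) to 0.42 (TARS2). PARS2 (8.51 ± 3.68 FPKM in invasive and 5.85 ± 1.07 FPKM in core libraries), HARS2 (12.7 ± 1.86 and 13.5 ± 1.09 FPKM), YARS2 (4.29 ± 0.735 and 4.92 ± 0.694 FPKM) and MARS2 (3.53 ± 0.264 and 3.74 ± 0.384 FPKM) overlapped.

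The number called depended on the fit, and leaving out all MK801 libraries, or replicate 1 or 3 of them, raised the count. With the invasive and core libraries fitted alone, limma called 19 of 35 members: 9 cytosolic and 2 mitochondrial higher, 5 cytosolic and 3 mitochondrial lower. In the same fit 52.2% of all genes were called, so the members' share lay near the background. Without MK801 replicate 1 in the joint fit 15 members were called (9 higher, 6 lower) of a background of 39.5%, and without MK801 replicate 3 it was again 15 (9 higher, 6 lower) of 41.3%. With all 9 libraries and a block for the replicate number, 6 members were called higher and 4 lower, all cytosolic. In that fit 1383 of 11845 genes were called higher and 1142 lower. The labels do not say whether libraries of the same number share a device.

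The direction of a synthetase followed the base composition of its transcripts. Across the 35 members the invasive minus core difference correlated with gene GC content (Spearman 0.83, n = 35), with a value of 0.88 within each compartment (n = 20 and 15). Over 11841 genes the value was 0.77. All points share the same 6 libraries, and core libraries had the lower mean GC content, as given above. GC content ran from 40.6 to 61.6% over cytosolic members (median 48.6%), from 41.4 to 61.4% over mitochondrial members (51.8%), and had a median of 49.2% over all genes tested. With limits of 46 and 52%, chosen after seeing the data, all 6 cytosolic members at 52% or more (AARS, CARS, FARSA, MARS, QARS, VARS) were higher in invasive libraries, by 0.59 to 1.36 on the log2 scale. All 7 mitochondrial members in that range were higher by 0.34 to 0.84. Under 46%, 6 of 8 cytosolic members (DARS, EPRS, LARS, NARS, RARS, TARS) and all 4 mitochondrial members (IARS2, NARS2, RARS2, WARS2) were lower. The part of GC content in these differences was not tested beyond removing its trend.

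**Figure D2:**
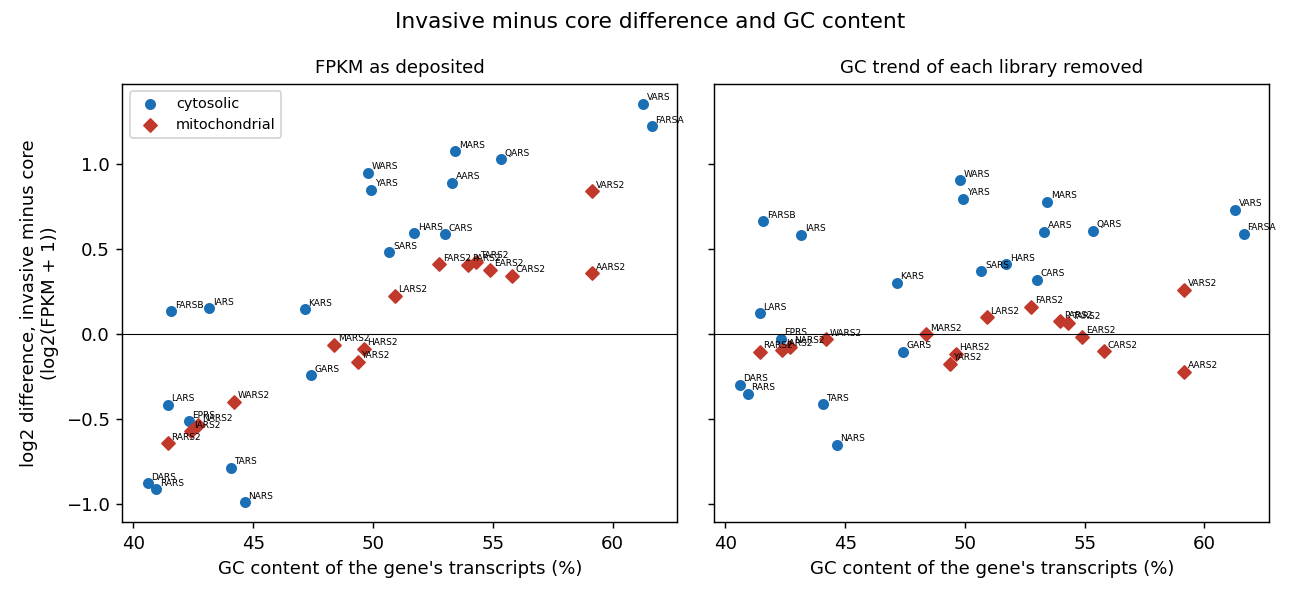
The log2 difference of invasive minus core libraries of 35 synthetases against the GC content of their transcripts (%), for FPKM as deposited on the left and with each library's GC trend removed on the right. On the left both compartments rise with GC content, and on the right the mitochondrial points lie between -0.22 and 0.26, while the cytosolic points run from -0.65 to 0.91.

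With each library's trend over GC content removed, the median difference was 0.39 over cytosolic members (14 higher, 6 lower) and was -0.03 over mitochondrial members (5 higher, 10 lower) and -0.01 over all genes. The sign turned for LARS, AARS2, CARS2 and EARS2. The step did not take out all of the relation to GC content among members. After it the difference still correlated with GC content, at Spearman 0.40 over all members (n = 35) and 0.16 over all genes. The value was 0.58 over cytosolic (n = 20) and 0.27 over mitochondrial members (n = 15). In the fit of 9 libraries 0 members were called by limma (smallest adjusted p 0.0637), beside 24 higher and 8 lower of all genes. At an unadjusted p under 0.05 stood 11 cytosolic but 0 mitochondrial members, against 22.5% of all genes. With the 6 control libraries fitted alone and the GC trend removed, a combination chosen after seeing the data, 9 of 20 cytosolic members rose in invasive libraries at a limma adjusted p under 0.05 and 0 fell. In that fit 10.3% of all genes rose and 8.85% fell, and 0 of 15 mitochondrial members was called. The log2 differences of the 9 were 0.90 for WARS (SE 0.15, limma adjusted p = 0.0114), 0.79 for YARS, 0.78 for MARS, 0.75 for VARS, 0.65 for FARSB, 0.62 for QARS, 0.61 for both FARSA and AARS, and 0.57 for IARS. FARSB and IARS joined the list through the GC step, as their differences in the deposited values were 0.13 and 0.15. The strongest mitochondrial value was 0.28 for VARS2 (SE 0.12, limma adjusted p = 0.142). The lowest cytosolic values were -0.66 for NARS (SE 0.21, limma adjusted p = 0.0616), -0.42 for TARS and -0.36 for RARS. Leaving out 1 of the 6 libraries at a time gave 3 to 12 called members. MARS, WARS and FARSB were called in all 6 of these fits and no mitochondrial member in any. The count was 4 without core replicate 1, 3 without core replicate 2 or 3, 5 without invasive replicate 1, and 12 without invasive replicate 2, of which 4 (DARS, NARS, RARS and TARS) were lower. The share of all genes called in each of these fits is not given here, so these counts are not set against a background. Whether the cytosolic and mitochondrial sets differ from each other was not tested, since the members were chosen with these data known.

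**Figure D3:**
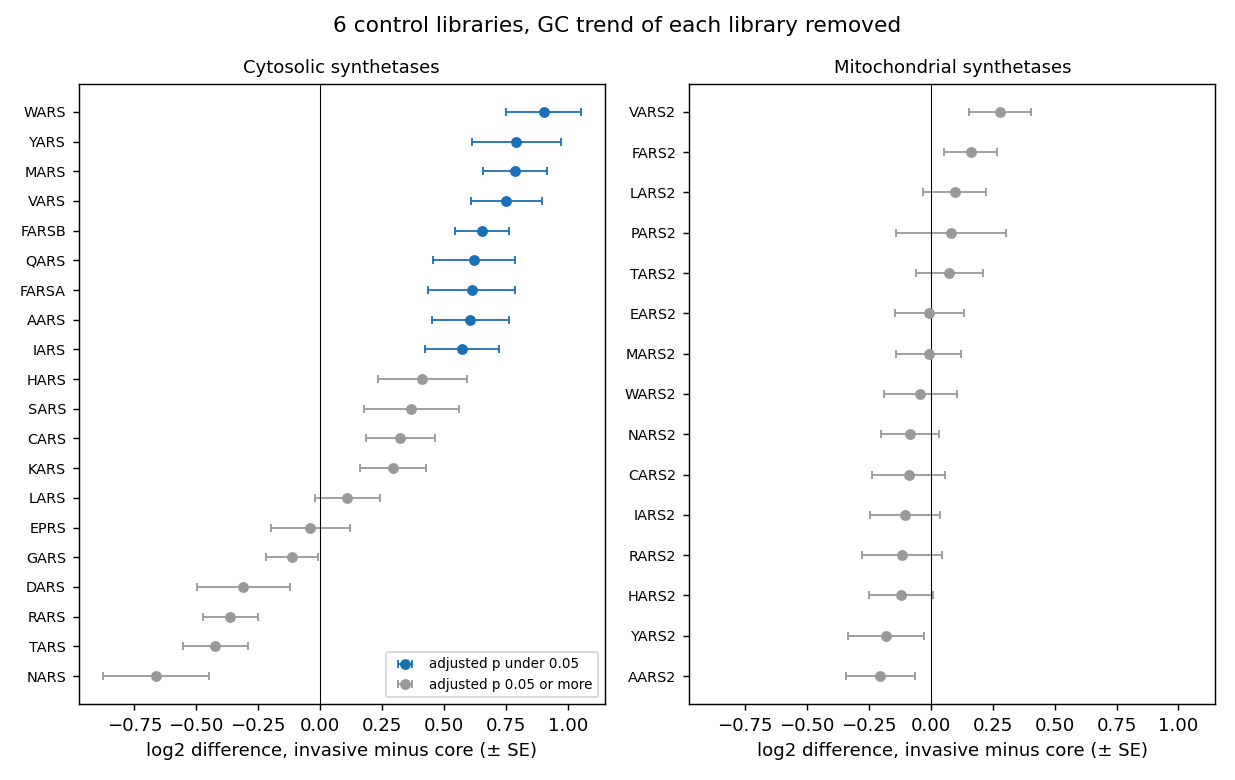
Invasive minus core differences (log2, with SE) of 20 cytosolic and 15 mitochondrial synthetases in the 3 invasive and 3 core libraries alone, after removal of the GC trend. The 9 members with an adjusted p under 0.05 are cytosolic and positive, from 0.57 to 0.90, and the mitochondrial values stay between -0.20 and 0.28.

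Cytosolic and mitochondrial enzymes of the same amino acid had opposite signs about as often as the same sign. Of 16 tested pairs, in which EPRS and FARS2 each stand in 2, the invasive minus core differences had the same sign in 7 and opposite signs in 9 (Spearman 0.24 between partners, n = 16). The cytosolic minus the mitochondrial difference ran from -1.21 for TARS and TARS2 to 1.35 for WARS and WARS2, and was positive in 9 of 16 pairs. It followed the difference in GC content between partners (Spearman 0.80, n = 16, over the same 6 libraries). MARS was 6.55, 6.43 and 5.18 times MARS2 in FPKM in invasive libraries, against 2.57, 2.44 and 2.67 times in core libraries. WARS was 4.04, 3.46 and 2.16 times WARS2 in invasive libraries, against 1.30, 0.855 and 0.972 times in core libraries. YARS was 5.99, 6.44 and 5.03 times YARS2 in invasive libraries, against 3.27, 2.31 and 2.62 times in core libraries. In these 3 pairs, which had the largest positive differences of the 16, the ratio was higher in every invasive library than in every core library. YARS and YARS2 differ by 0.564 percentage points in GC content. TARS and TARS2 ran the other way, at 0.965, 0.778 and 1.26 in invasive libraries, against 2.27, 2.17 and 2.87 in core libraries, so that the 2 threonine transcripts had similar FPKM in the invasive fraction. Of the 6 pairs within 2.5 percentage points of GC content (HARS, IARS, NARS, RARS, VARS and YARS with their partners), 4 had a larger cytosolic difference, and the values ran from -0.46 for NARS to 1.01 for YARS.

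**Figure D4:**
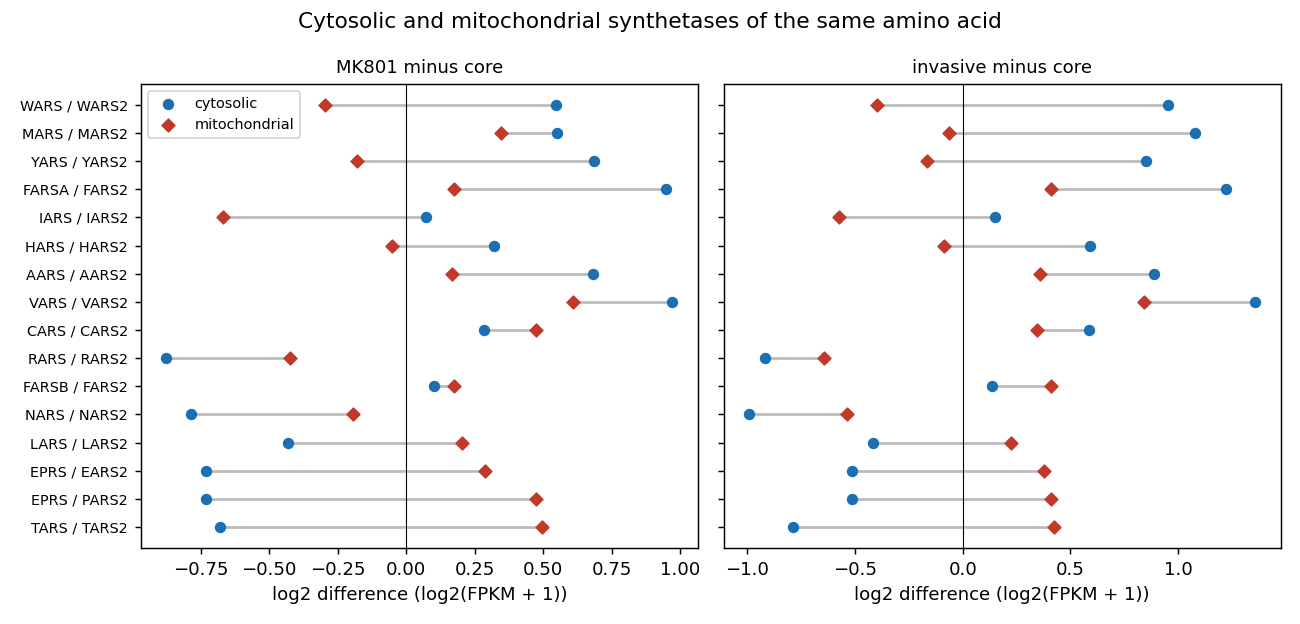
Log2 differences of the cytosolic and the mitochondrial synthetase of each amino acid, joined by a line, for MK801 minus core libraries on the left and invasive minus core libraries on the right. The cytosolic value is the larger one in the upper pairs, such as WARS and WARS2 (0.95 and -0.40 on the right), and the smaller one in the lower pairs, such as TARS and TARS2 (-0.79 and 0.42).

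Grouped by role, the 8 synthetases of the multi-synthetase complex had 4 higher and 4 lower values in invasive libraries (median log2 difference -0.14). The 12 cytosolic synthetases outside it had 9 higher and 3 lower (median 0.59). The 13 members known as ATF4 targets had 8 higher and 5 lower (median 0.48), beside 5 higher and 2 lower of the other 7 (median 0.14). With the GC trend removed these medians were 0.21 in the complex (5 higher, 3 lower), 0.50 outside it (9 higher, 3 lower), 0.37 over the ATF4 targets and 0.41 over the other 7, so that the sign for the complex turned and the order of the last pair reversed. None passed the limma test over 9 libraries, and the same held for all of the following genes of the pathway. Of 4 genes for the scaffold of the complex and tRNA export, AIMP2 was at 23.1 ± 3.22 FPKM in invasive and 11.0 ± 2.05 FPKM in core libraries, while AIMP1 was at 5.60 ± 1.62 and 13.3 ± 3.19 FPKM (SD, n = 3 each). Both are scaffold proteins of the same complex. Of 5 tested cytosolic elongation factors 4 were higher, with EIF5A at 214 ± 32.2 FPKM in invasive and 96.7 ± 14.6 FPKM in core libraries. Of 13 mitochondrial translation and tRNA amidation factors 3 were higher and 10 lower (median -0.37), which became 9 higher and 4 lower (median 0.05) with the GC trend removed. TUFM, which delivers charged transfer RNA to the mitochondrial ribosome, was at 134 ± 38.9 FPKM in invasive and 56.2 ± 4.08 FPKM in core libraries, and the initiation factor MTIF3 was at 5.92 ± 1.33 and 15.5 ± 2.57 FPKM. Of 76 tested mitochondrial ribosomal proteins 50 were higher and 26 lower (median 0.26). Of 13 tested integrated stress response genes 11 were higher and 2 lower (median 0.50), beside 7 higher and 6 lower (median 0.12) with the GC trend removed. DDIT3, a stress-induced factor, was lower, at 14.1 ± 6.28 FPKM in invasive and 32.1 ± 5.30 FPKM in core libraries. DDIT3 exons overlap those of MARS, which was higher in invasive libraries.

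In MK801 devices set against the core, 2 of the 3 libraries lay apart and the third stayed at the core level. The comparison uses the same core libraries as the one above. By limma, 0 of 35 members and 0% of all genes were called. At an unadjusted p under 0.05 stood 9 cytosolic and 1 mitochondrial member, against 21.2% of all genes. The median log2 difference was 0.30 over cytosolic members, 0.17 over mitochondrial members and 0.00 over all genes. The cytosolic median was -0.02 and the mitochondrial one 0.24 with quantile normalization, and they were 0.03 and -0.07 with voom, where the median over all genes was -0.25. Without MK801 replicate 1 they were 0.09 and 0.05, and without MK801 replicate 3 they were 0.48 and 0.30. Over all 9 libraries and with a filter of 5 FPKM in place of 1 FPKM, the median over all genes was 0.23. With no overlap, MK801 libraries lay above core libraries for AARS, MARS and YARS (background 9.89%) and below for GARS, IARS2, NARS2 and WARS2 (background 8.82%). The median deviation of cytosolic members from their core mean was 0.69, 0.20 and -0.02 on the log2 scale in the 3 MK801 libraries, 0.29, 0.56 and 0.24 in invasive libraries, and -0.02, -0.02 and 0.05 in core libraries. For mitochondrial members it was 0.31, 0.08 and -0.03 in MK801 libraries, 0.26, 0.16 and -0.01 in invasive libraries, and -0.05, 0.00 and 0.01 in core libraries. MK801 replicate 3, the deepest library, had a cytosolic median at the core level.

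**Figure D5:**
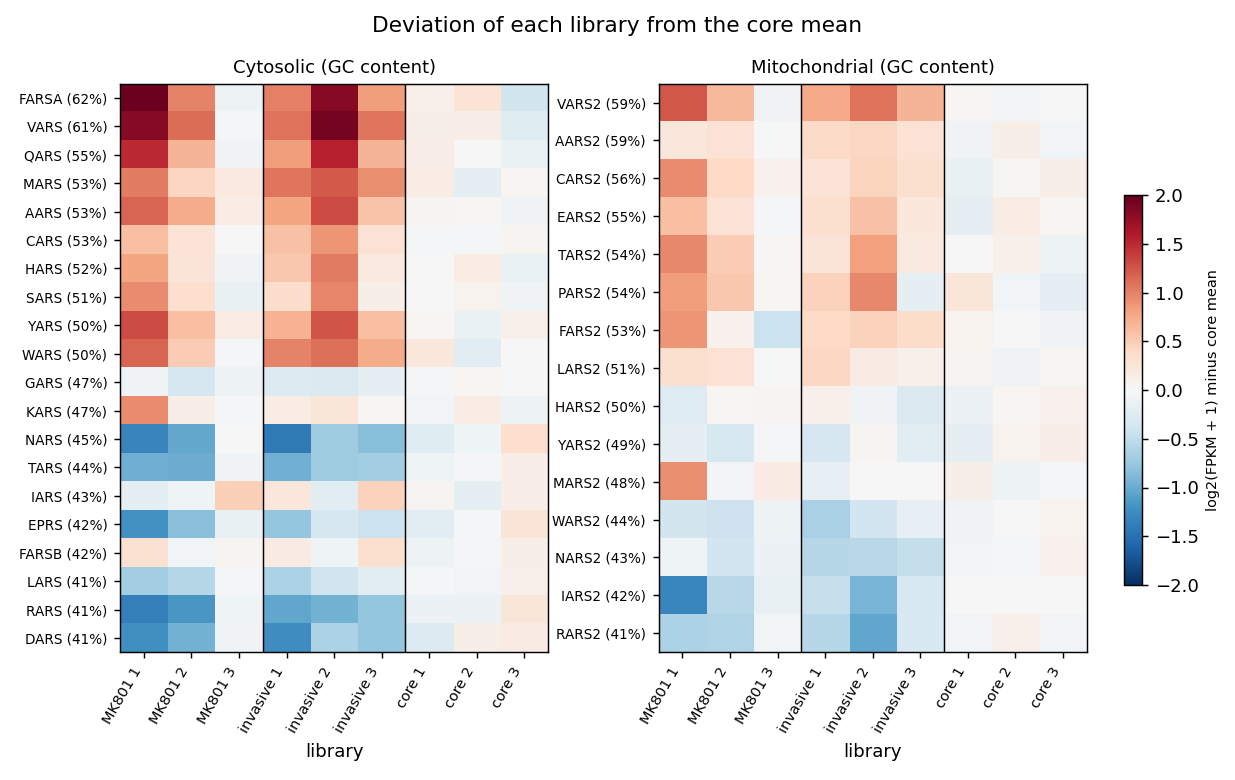
Deviation of each synthetase in each library from its mean over the core libraries, on the log2(FPKM + 1) scale, with genes in order of GC content. MK801 replicates 1 and 2 show the pattern of the invasive libraries, with high-GC genes up and low-GC genes down, and MK801 replicate 3 is close to the core.

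Of the 8 members named by the smallest p, 5 were lower in MK801 libraries. RARS (ENSG00000113643, chr5:168486445-168519299, plus strand) had 8.49, 9.96 and 22.1 FPKM in MK801 libraries, against 21.6, 21.6 and 28.1 FPKM in core libraries (log2 difference -0.88, SE 0.32, limma adjusted p = 0.235). EPRS had 8.22, 10.9 and 18.2 FPKM in MK801 libraries, against 17.2, 19.9 and 24.4 FPKM in core libraries (log2 difference -0.73, SE 0.29, limma adjusted p = 0.235). In both, replicates 1 and 2 lay below every core library and replicate 3 lay inside the core range. TARS had 10.6, 10.5 and 20.5 FPKM and DARS 18.0, 22.0 and 41.0 FPKM in MK801 libraries, against 20.3, 21.1 and 23.9 FPKM for TARS and 35.6, 46.9 and 48.3 FPKM for DARS in core libraries. Their log2 differences were -0.68 and -0.75. VARS had 81.6, 49.9 and 22.1 FPKM in MK801 libraries, against 24.4, 24.6 and 18.8 FPKM in core libraries, with a log2 difference of 0.97 (SE 0.42, limma adjusted p = 0.235). Again replicate 3 alone was inside the core range. Among mitochondrial members, IARS2 had 16.3, 27.7 and 37.2 FPKM in MK801 libraries, against 41.5, 41.3 and 41.4 FPKM in core libraries, with no overlap (log2 difference -0.67, SE 0.30, limma adjusted p = 0.235). VARS2 had 11.6, 7.44 and 4.13 FPKM and CARS2 12.5, 8.18 and 6.42 FPKM in MK801 libraries, against 4.53, 4.17 and 4.39 FPKM for VARS2 and 5.33, 6.14 and 6.57 FPKM for CARS2 in core libraries. Their log2 differences were 0.61 and 0.47. Without MK801 replicate 3, limma called 18 members (10 higher, 8 lower), with 50.2% of all genes called in that fit. Without MK801 replicate 1 it called 0 members, and 0 of 35 had an unadjusted p under 0.05, against 8.87% of all genes. These differences also followed GC content (Spearman 0.82, n = 35). With its trend removed, 3 of 35 members stood at an unadjusted p under 0.05, against 11.9% of all genes. The medians after this removal were 0.26 over cytosolic and 0.06 over mitochondrial members. The sign turned with this step for LARS, AARS2, EARS2, FARS2, NARS2, RARS2 and WARS2.

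Between MK801 devices and the invasive fraction no synthetase stood apart by the test. By limma 0 of 35 members and 0% of all genes were called, and 0 members had an unadjusted p under 0.05, against 8.26% of all genes. The median log2 difference was -0.13 over cytosolic members (6 higher, 14 lower) and 0.03 over mitochondrial members (8 higher, 7 lower). All 6 cytosolic members with 52% GC or more had lower means in MK801 libraries, by log2 values from -0.52 to -0.21. The 7 mitochondrial members in that range split into 3 higher and 4 lower (median -0.09). In each of the 6 cytosolic members MK801 replicate 3 was the lowest MK801 library. Without that library the median was -0.09 over cytosolic members (8 higher, 12 lower) and 0.07 over mitochondrial members (11 higher, 4 lower). MARS was at 14.9 ± 4.87 FPKM in MK801 and 21.3 ± 2.30 FPKM in invasive libraries (SD, n = 3 each), with a log2 difference of -0.52 (SE 0.25, limma adjusted p = 0.646). WARS was at 7.79 ± 3.63 FPKM in MK801 and 10.0 ± 1.37 FPKM in invasive libraries (log2 difference -0.40), CARS at 11.0 ± 2.55 and 13.8 ± 3.05 FPKM (-0.30), and HARS at 10.2 ± 3.43 and 12.5 ± 4.01 FPKM (-0.27). VARS was at 51.2 ± 29.8 FPKM in MK801 and 61.3 ± 22.2 FPKM in invasive libraries, with a log2 difference of -0.38, which was -0.81 without MK801 replicate 1 and 0.11 without MK801 replicate 3. In each of these genes MK801 replicate 3 was the lowest of the 3 MK801 libraries. Of the tested members, NARS2 alone did not overlap. It had 6.14, 4.81 and 5.93 FPKM in MK801 libraries, against 4.07, 4.14 and 4.43 FPKM in invasive libraries (log2 difference 0.34, SE 0.18, limma adjusted p = 0.730). Such a gap was seen for 5.22% of genes upward and 5.63% downward. MARS2 was at 5.28 ± 2.37 FPKM in MK801 and 3.53 ± 0.264 FPKM in invasive libraries (log2 difference 0.41), a difference carried by MK801 replicate 1 at 7.98 FPKM, and AARS2 was at 5.92 ± 0.709 and 6.88 ± 0.363 FPKM (-0.19).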

How the data were processed

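Poly-A RNA sequencing of 9 libraries was used, 3 per group, grouped by their titles. The authors deposited FPKM per gene with the gene length, and GRCh38, HISAT2 2.0.5 and featureCounts 1.5.0-p3 are named, without settings, in the submitters' processing notes. Gene coordinates matched GENCODE 29 for 100% of genes. The deposited FPKM was multiplied by gene length and divided by the value of 1 fragment, which was estimated for each library from the same values. This gave whole fragments for 100% of values (tolerance 0.01 fragments), from which depth was taken. Intervals from depth would cover counting error only.

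A log2(FPKM + 1) value was fitted with limma 3.58.1 (R 4.3.3, empirical Bayes with trend, 6 residual degrees of freedom) for genes with at least 1 FPKM in at least 3 libraries, and p was adjusted over all 11845 genes. The steps were tested on simulated data. GC trends were removed per library by loess (span 0.3). GC content is that of GENCODE transcripts.

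Alternatives covered pseudocount, filter, scaling, voom on recovered fragments, GC trend, replicate block, genes detected as a covariate, the compared groups alone, and each library left out. Named genes are, per comparison, the 5 cytosolic and 3 mitochondrial members with the smallest p. Other members are given by levels, ranges and counts. Of other lists, up to 2 genes with the smallest p are named. The members and lists were chosen with earlier results of these data known. No permutation p is given, as 3 libraries per group cannot reach an exact p under 0.05.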

Additional observations from a re-analysis of the deposited data

How the results depend on the processing

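For the invasive minus core comparison the count of synthetases called, 0 in the fit of 9 libraries, was 10 with the replicate block (2525 of all genes called), 19 with the compared groups alone (6179 of all genes), 9 with these and the GC trend removed (2266 of all genes), and 10 with the replicate block as well (2539 of all genes). Leaving out each library gave 0 to 15. The count of 15 came without MK801 replicate 1 (39.5% of all genes called) and without MK801 replicate 3 (41.3%). In the compared groups alone with the GC trend removed, leaving out a library gave 4, 3 and 3 (core replicates 1, 2 and 3) and 5, 12 and 8 (invasive replicates 1, 2 and 3). The share of all genes called is not given for the latter fits. The cytosolic minus mitochondrial median, 0.09, was -0.30 with quantile normalization, 0.42 with the GC trend removed, with and without the replicate block, 0.43 with the compared groups alone and the GC trend removed, with and without the block, and, leaving out the same libraries in the same order, 0.45, 0.48, 0.39, 0.44, 0.27 and 0.53. For MK801 minus core the count was 0 to 18 when a library was left out, with 18 without MK801 replicate 3 (50.2% of all genes called). The median, 0.13, was -0.26 with quantile normalization. For MK801 minus invasive the median, -0.17, was -0.34 without MK801 replicate 1 in the compared groups alone with the GC trend removed. Of 671 alternative values of 24 named results, 603 kept direction and side of the threshold, 64 newly passed it and 4 turned: VARS in MK801 minus invasive (-0.81 to 0.11 when a library was left out, 0.11 without MK801 replicate 3) and, in the compared groups alone with the GC trend removed, RARS2 in invasive minus core to 0.019 without invasive replicate 2, CARS2 in MK801 minus core to -0.0099 without core replicate 1 and AARS2 in MK801 minus invasive to 0.048 without MK801 replicate 1. The causes were not tested. The median over all genes shifted to -0.36 with voom and 0.24 with a filter of 5 FPKM for invasive minus core, and to -0.25 and 0.23 for MK801 minus core. Libraries with the same number did not deviate together throughout (correlations of -0.15 to 0.61), and not every library deviated most like the one of its own number. The labels do not say what the number that a core and an invasive library share stands for. Whether the block is a paired design is therefore not known. Depth limits SARS2 above all.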
